A study of Mus musculus with 9 samples.

Results

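Noggin (Nog) and 8 further genes of bone morphogenetic protein (BMP) signalling were followed in the RNA of extracellular vesicles (EVs), the membrane particles that cells release with RNA inside. The genes were Nog, Grem1, Chrd, Fst, Bmp1, Bmp2, Bmp4, Bmpr1a and Id1. Every probe named for them on the array was taken, which gave 12 of 55681 probes. Of the 9 genes, 8 had a probe bright enough to enter the fit of 14321 genes, and Bmp2 did not. The genes were picked with their differences between the groups already known, so those differences are given as a description and without a p.

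The EVs came from mouse embryonic fibroblasts (MEFs), connective tissue cells that the methods list as purchased. One group came from PBS-treated MEFs (5 arrays) and the other from control MEFs (4 arrays), where PBS is phosphate-buffered saline. The labels name no strain, age, dose or time. Whether electric pulses, by which the study transfects cells, were part of the PBS treatment is not given in the labels. Nothing says that the replicates were separate cultures, so a p here measures variation among these arrays and may cover technical error alone. A measurement on bulk EV RNA also cannot tell fewer vesicles of a kind from less of an RNA in each vesicle.

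BMPs are secreted ligands that bind pairs of receptor kinases, which phosphorylate SMAD proteins that enter the nucleus and switch on targets such as the Id genes. Secreted antagonists, among them Noggin, Chordin and Gremlin, bind the ligands and keep them from the receptors. Proteases of the tolloid family, of which Bmp1 is the founding member, cut Chordin and so release the ligand. Fibroblasts are known both as a source of these secreted proteins and as cells that respond to BMPs.

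The signal of each gene rests on 60-base probes, and sequences are printed here for the results that depend most on the probe. Positions are on mm9, the build of the array annotation. Nog and Chrd were read by 1 probe each, and these are printed whole because both signals stepped between the 2 slides. The 3 Bmp1 probes and the 2 Bmp4 probes lie at different places of their genes, and Bmp2 was below background. Of these probes all but 1 for Bmp1 are given by their last 30 bases. Capitals mark AATAAA, the common polyadenylation signal, searched on the printed strand only.
Nog, A_51_P237040, chr11:89162849-89162908, minus strand: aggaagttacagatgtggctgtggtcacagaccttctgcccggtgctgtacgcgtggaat
Chrd, A_51_P215975, chr16:20739049-20739221, plus strand: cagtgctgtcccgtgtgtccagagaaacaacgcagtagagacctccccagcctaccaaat
Bmp1, A_55_P2006698, chr14:70886415-70886474, minus strand: ggacccctgcgtcctgctcctttctcttgc
Bmp1, A_55_P2006703, chr14:70874370-70874429, minus strand: caccccagccAATAAAcagaaagtgttaca
Bmp1, A_55_P2006708, chr14:70890355-70890414, minus strand, whole: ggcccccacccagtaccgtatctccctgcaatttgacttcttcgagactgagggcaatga
Bmp2, A_55_P2041961, chr2:133388260-133388319, plus strand: ctaAATAAAatataatatttcttctttatt
Bmp4, A_55_P1959022, chr14:47003198-47003257, minus strand: gaaAATAAAatgagtcattattttaaagat
Bmp4, A_55_P2154387, chr14:47003391-47003450, minus strand: tccctatagctggacttttatcttaaaaaa

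The Chrd probe spans 173 bases of the genome with its 60 bases, so its match is split. AATAAA stood in the last 30 bases of 4 of the 12 probes, those of Fst, Bmp2, the Bmp1 probe A_55_P2006703 and the Bmp4 probe A_55_P1959022, and in 8.16% of all 55681 probes. The probes differed in base composition. Nog and Chrd probes had 55% G and C, the Id1 probe 28.3% and the Bmp4 probe A_55_P1959022 15%. Exon and UTR annotation of mm9 was not used here. The probes of Grem1 (chr2:113589227-113589286), Fst (chr13:115243565-115243624) and Bmpr1a (chr14:35224339-35224398) match the minus strand and that of Id1 (chr2:152563083-152563142) the plus strand.

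Values are log2 of the background-corrected signal, minus the 75th percentile of that array over 8428 probes that were well above background on all 9 arrays. A level of 0 is thus that percentile. Such levels are compared between arrays for the same probe and not between probes. Arrays lay on 2 slides. PBS-treated replicates 1 to 3 shared slide 1 with control replicates 1 and 2, while PBS-treated replicates 4 and 5 shared slide 2 with control replicates 3 and 4. PBS-treated arrays were the brighter ones. Their 75th percentile was 1100 to 2190 intensity units against 435 to 1030 on control arrays, and probes well above background numbered 16502 to 19252 against 12587 to 15566. Probes below background on every array (30125) had a median difference of -1.34 after scaling, while all tested genes had a median of -0.02. The part of this shift in the values of dim probes was not tested. Of the fibroblast markers 6 of 8 were well above background on every array, including Col1a1, Col3a1, Pdgfra and Vim, and Thy1 was so on none. Their summed level, linear and relative to the percentile, was 7.22 to 9.52 in PBS-treated and 9.37 to 12.9 in control EVs. Of 7 leukocyte markers Itgam and Cd14 were well above background on every array and Cd68, Adgre1 and Lyz2 on none, with sums of 1.08 to 2.08 and 2.1 to 3.1. Epcam, Cdh1 and Krt18, epithelial markers, and all 3 muscle markers were well above background on no array. The part of other cells in the results was not tested.

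Nog, the antagonist that binds BMPs as a secreted dimer, was the member with the largest difference. Its level in PBS-treated EVs was -5.34, -5.20 and -6.27 in replicates 1 to 3 and -7.33 and -7.41 in replicates 4 and 5, the last 2 not well above background. In control EVs it was -2.92 and -2.73 in replicates 1 and 2 and 1.06 and 0.89 in replicates 3 and 4, all well above background. The groups did not overlap, and each control array was above every PBS-treated array. The background-corrected intensities before scaling ran the same way, at 37.2, 59.3, 18.5, 6.82 and 6.79 units in PBS-treated replicates 1 to 5 and 105, 155, 946 and 806 units in control replicates 1 to 4. The group means were -6.31 ± 1.05 (SD, n = 5) and -0.92 ± 2.19 (SD, n = 4), a difference of -5.39 ± 1.0 (SE, limma), or 41.8-fold lower in PBS-treated EVs, of which 3 of 5 arrays measured it. With the other 2 arrays set to their lowest signal well above background the difference was -5.02, or 32.5-fold lower. Of the 14321 genes tested 33 (0.23%), Nog included, had a fitted difference at least as large as the -5.39 of Nog. Of these 21 were lower in PBS-treated EVs. That rank uses the signals of dim arrays as they were read.

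The Nog difference was unequal on the slides. On slide 1 it was -2.78 and on slide 2 it was -8.34. Neither PBS-treated array of slide 2 was well above background. With both at their lowest signal well above background, the level on slide 2 was 173-fold lower in PBS-treated EVs. That fold holds for the scaling used here and is no strict bound, since a probe can miss detection at a higher signal. The pooled difference was -3.25 with normexp and -2.74 in the deposited value table. From slide 1 to slide 2 the level changed by -1.76 in PBS-treated and by 3.80 in control EVs. The 2 slide differences were themselves -5.56 ± 0.455 (SE) apart by limma's interaction term, and -4.65 apart with the 2 PBS-treated arrays of slide 2 at their lowest signal well above background. Since this inequality of Nog was known when the term was chosen, it is given as a description and without a p. With the percentile over all probes, with normexp or without 1 array at a time the term ran from -5.89 to -3.08. Of the other 7 members tested none was called unequal between slides (limma, Benjamini-Hochberg), with adjusted p of 0.122 for Fst, 0.147 for Grem1 and 0.417 to 0.882 for the rest (for Fst and Grem1 the unadjusted p was under 0.05). Of all genes 9.41% were called, and 23, Nog included, were at least as unequal as Nog. The group difference of Nog was -5.31 with slide as a block. Without control replicates 3 and 4 it was -3.49, but slide 2 then holds PBS-treated arrays only, so that value includes a step between slides.

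**Figure D1:**
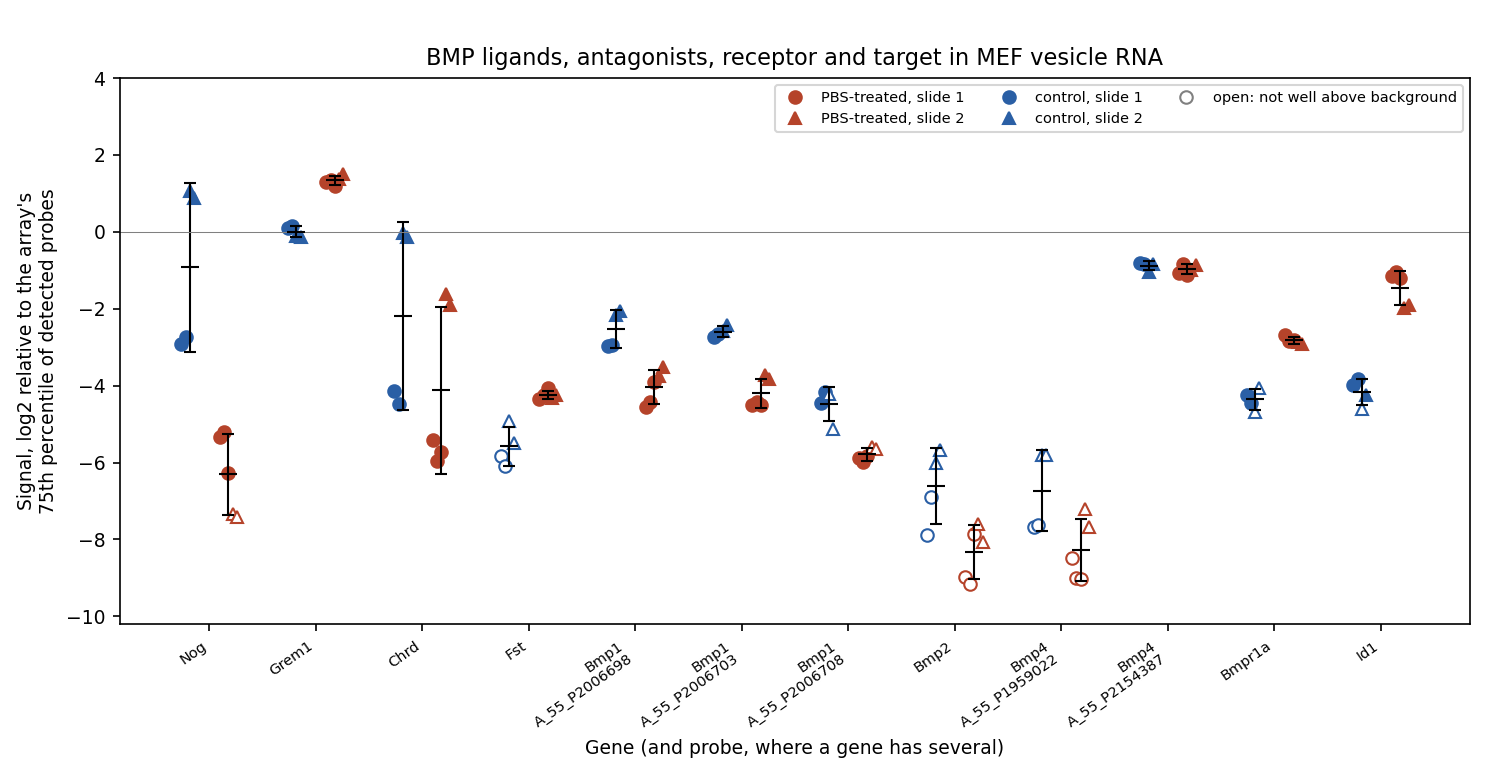
Signal of the 12 probes of the 9 genes on each of 9 arrays (log2, minus the 75th percentile of detected probes), with control in blue, PBS-treated in red, circles for slide 1 and triangles for slide 2. Black bars are the group mean and SD, and open symbols are arrays where the probe was not well above background. The 4 control arrays of Nog, from -2.92 to 1.06, all lie above the 5 PBS-treated arrays.

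Chrd encodes Chordin, the antagonist that tolloid proteases cut. Its level was -5.42, -5.96 and -5.72 in PBS-treated replicates 1 to 3 and -1.63 and -1.90 in replicates 4 and 5. In control EVs it was -4.15 and -4.47 in replicates 1 and 2 and -0.02 and -0.14 in replicates 3 and 4. All 9 arrays were well above background. The groups overlapped because the arrays of slide 2 were high in both, but on each slide every control array was above every PBS-treated array. The pooled difference was -1.93 ± 1.40 (SE), with -1.39 on slide 1, -1.68 on slide 2 and -1.52 with slide as a block. Without control replicates 3 and 4 together the pooled difference was 0.19, since slide 2 then holds PBS-treated arrays only.

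The step of Chrd between slides was 3.94 in PBS-treated and 4.23 in control EVs. A step at least as large in both groups was found in 250 of the 14321 genes (1.7%), while the median step over all genes was 0.06 and -0.18. The median G and C content of the probes of those 250 genes was 45% against 43.3% for all genes tested. Chrd thus changed with the slide in the same way in the 2 groups, whereas Nog was higher on slide 2 in control and lower there in PBS-treated EVs.

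**Figure D2:**
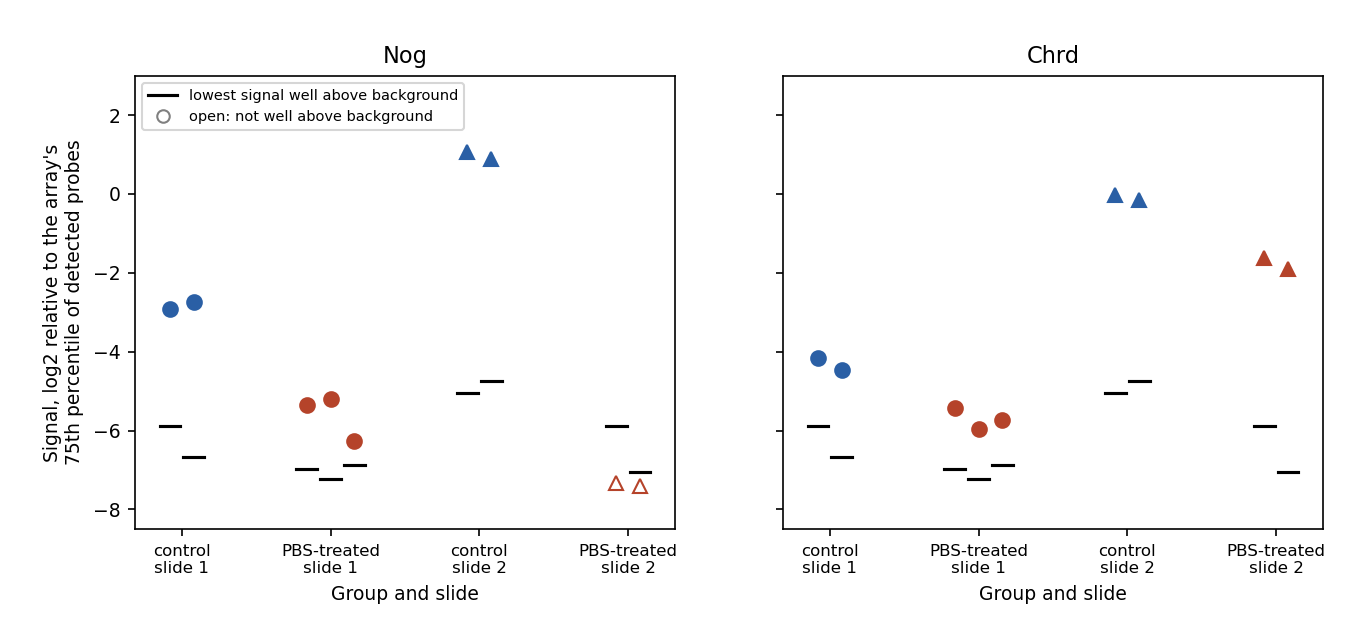
Level of Nog (left) and Chrd (right) on each array by group and slide, in log2 minus the 75th percentile of detected probes. Black dashes mark the lowest signal that was well above background on that array. For Nog the control arrays of slide 2 sit at 1.06 and 0.89 and the PBS-treated arrays of slide 2 below their dashes, while Chrd is about 4 log2 units higher on slide 2 in both groups.

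Grem1, the antagonist Gremlin of the DAN family, was bright on all 9 arrays and varied little within a group. PBS-treated EVs had levels of 1.28, 1.34, 1.18, 1.36 and 1.51 and control EVs had 0.10, 0.15, -0.10 and -0.14. Each PBS-treated array was above each control array, on both slides. The means were 1.34 ± 0.12 (SD, n = 5) and 0.00 ± 0.14 (SD, n = 4), a difference of 1.33 ± 0.12 (SE) or 2.52-fold higher, with 1.14 on slide 1 and 1.56 on slide 2. The direction was thus opposite to that of Nog.

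Fst encodes Follistatin, which binds activins and some BMPs. It was well above background on all 5 PBS-treated arrays, at -4.35, -4.26, -4.07, -4.33 and -4.23, and on none of the 4 control arrays, at -5.83, -6.09, -4.92 and -5.48. With the scaling used here, and dim arrays at no less than their lowest signal well above background, the level was 2.22-fold higher in PBS-treated EVs. On slide 2 it was 1.47-fold higher. On slide 1 both control arrays lay above their lowest signal well above background. The 3.33-fold there is thus the plain difference and no bound. The fitted difference was 1.34 ± 0.23 (SE). It changed sign, to -0.22, when the background was corrected with normexp, which moved the median of all genes to -0.51, so that Fst was 0.29 above that median.

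The ligands were read by 3 probes. Bmp2 was well above background on no array, with levels of -9.16 to -7.59 in PBS-treated and -7.89 to -5.67 in control EVs, so no fold is given. Bmp4 had 2 probes whose starts lie 193 bases apart and which disagreed. The probe A_55_P1959022 was well above background on no array. The probe A_55_P2154387 was so on all 9, at -1.06, -0.82, -1.13, -0.99 and -0.87 in PBS-treated and -0.81, -0.83, -1.05 and -0.83 in control EVs. These values overlapped, and the difference of -0.09 ± 0.12 (SE) was within the spread of the replicates (SD 0.13 and 0.11). Its sign followed the scaling: it was 0.31 with the percentile over all probes and 1.19 with spike-in scaling, where the median of all genes was 0.39 and 1.27.

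Bmp1, which despite its name is a protease that also trims procollagen, was lower in PBS-treated EVs by all 3 probes. Of these probes, the array annotation ties A_55_P2006698 to a non-coding RefSeq transcript and the rest to a coding one. The probe with the highest mean among them, A_55_P2006698, had levels of -4.55, -4.43, -3.90, -3.76 and -3.51 in PBS-treated and -2.97, -2.95, -2.16 and -2.06 in control EVs. These did not overlap, and slide 2 was the higher slide in both groups. The difference was -1.49 ± 0.30 (SE), with -1.33 on slide 1 and -1.53 on slide 2. The probe A_55_P2006703 gave -1.61 ± 0.206 (SE), with PBS-treated levels of -4.52 to -3.73 and control levels of -2.72 to -2.41. The dimmest, A_55_P2006708, gave -1.30 ± 0.212 (SE), with PBS-treated levels of -5.99 to -5.61 and control levels of -5.12 to -4.16, but it was well above background on no array of slide 2. Before scaling, the intensities of A_55_P2006698 were close, at 64.5 to 101 units in PBS-treated and 101 to 133 units in control EVs, and with spike-in scaling its difference was -0.21 against a median of 1.27 for all genes.

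Bmpr1a encodes a BMP receptor kinase that binds BMP2 and BMP4. Its levels were -2.67, -2.84, -2.82, -2.86 and -2.91 in PBS-treated EVs, a narrow range over both slides. In control EVs they were -4.24, -4.45, -4.68 and -4.07, and replicates 3 and 4 were not well above background. No arrays overlapped, and the difference was 1.54 ± 0.15 (SE) or 2.91-fold higher in PBS-treated EVs. It was 1.57 on slide 1 and 1.49, or 2.81-fold, on slide 2. The slide 2 fold is no bound, since its dim control arrays count there at their own signal. With normexp the difference was 0.48.

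Id1, a helix-loop-helix inhibitor and a common target of BMP signalling, had the largest difference among the members that were higher in PBS-treated EVs. PBS-treated levels were -1.16, -1.04 and -1.20 on slide 1 and -1.98 and -1.91 on slide 2, and control levels were -3.99 and -3.82 on slide 1 and -4.62 and -4.24 on slide 2. Every PBS-treated array was above every control array, and control replicate 3 was not well above background. The difference was 2.71 ± 0.26 (SE) or 6.55-fold higher, with 2.78 on slide 1 and 2.49 on slide 2. Intensities before scaling were 278 to 1062 units in PBS-treated and 18.5 to 72.4 units in control EVs.

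Counted over the 8 members tested, the groups did not overlap with PBS-treated higher for 4 (Grem1, Fst, Bmpr1a and Id1) and with PBS-treated lower for 2 (Nog and Bmp1), and they overlapped for Chrd and Bmp4. Over all genes the groups did not overlap with PBS-treated higher for 29.4% and lower for 17.6%. The members were chosen on this contrast, so nothing is read from their counts.

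**Figure D3:**
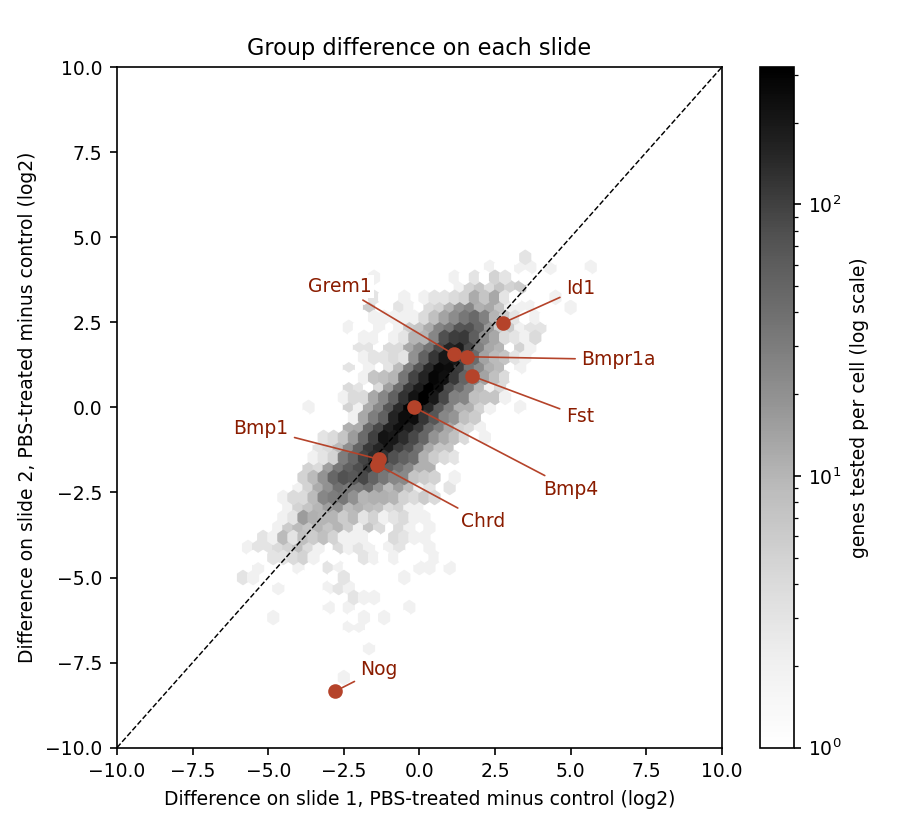
PBS-treated minus control difference (log2) on slide 1 (x axis) and slide 2 (y axis), with the 8 tested members in red over the density of all 14321 genes in grey and a dashed line where the slides are equal. Nog lies at -2.78 and -8.34, away from the line, and the other members lie within 1 log2 unit of it.

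The differences of the members were set against 7 other fits that changed the scaling, the background correction or the source of the values, or added slide as a block. The median of all genes moved with the setting, to 0.39 with the percentile over all probes, 1.27 with spike-in scaling, 0.23 with quantile normalization and -0.51 with normexp. Relative to that median Nog ran from -5.38 to -2.74, Chrd from -1.92 to -1.02 and Bmp1, by its probe A_55_P2006698, from -1.59 to -0.95. The other Bmp1 probes came closer to the median, from -1.66 to -0.69 (A_55_P2006703) and from -1.3 to -0.27 (A_55_P2006708). Grem1 ran from 1.06 to 1.64, Bmpr1a from 0.87 to 1.59, Id1 from 1.63 to 2.73 and Fst from 0.29 to 1.51. Bmp4 ran from -0.29 to 0.50 and so kept no direction. Relative to the median, the smallest sizes of Nog, Chrd, Bmp1, Grem1, Bmpr1a, Id1 and Fst came with normexp or with the value table. Without centring on the median, those of Chrd (-0.64) and Bmp1 (-0.21, A_55_P2006698) came with spike-in scaling.

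**Figure D4:**
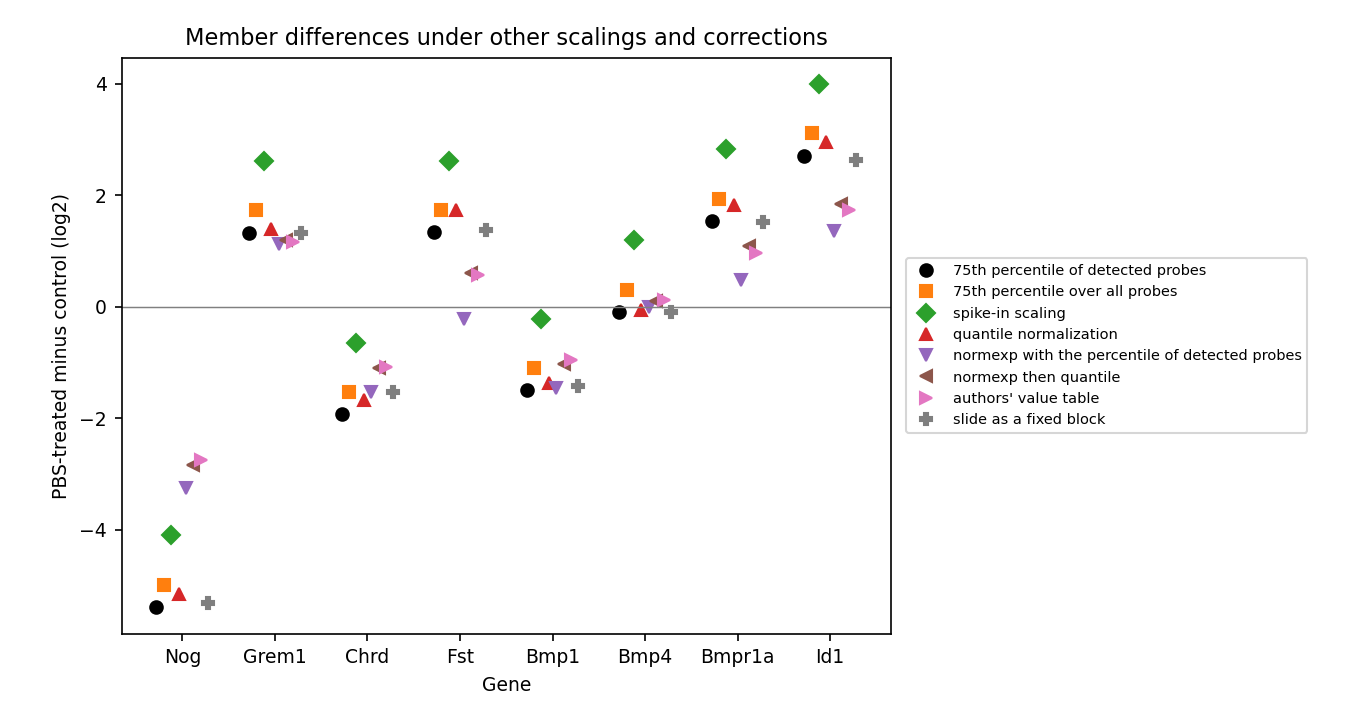
PBS-treated minus control difference (log2) of the 8 tested members under 8 settings, black for the scaling used in the text. The values are not centred on the median of all genes. Nog is below -2.7 and Grem1 and Id1 are above 1.1 in each setting, while Fst and Bmp4 fall on both sides of 0.

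Other genes of the pathway, 63 on 6 lists, were measured in the same arrays, and 27 of them were well above background on no array and a further 12 on too few to be tested. Of the 24 tested, 6 rose and 7 fell in PBS-treated EVs at an adjusted p under 0.05 (limma, Benjamini-Hochberg), or 54.2%. That is near the background, since 52.2% of all genes were called, 31.5% as higher and 20.7% as lower. With slide as a block 18 of the 24 were called, 8 higher and 10 lower, and 9979 of all genes, 5072 higher and 4907 lower. The 5 gained were Gdf5, Smoc1, Smad6, Id3 and Runx2. The median difference over the 24 was -0.19 against -0.02 for all genes. The lists were also drawn up with earlier results of these data known, and Smoc1, Acvr1, Id3, Msx1, Runx2, Smad1, Smad4, Smad6 and Smurf1 are named only to account for the genes tested, after their values were seen.

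The secreted antagonists moved both ways. Of 17 listed with the members left out, 7 were tested, 3 rose and 3 fell. Bmper, a Chordin-like binding protein, was well above background on all 5 PBS-treated and no control array and rose (adjusted p = 9.54e-06, limma). Its bound was 5.46-fold higher. The bound holds for the scaling used here, since the log2 difference was 0.77 with normexp and 1.29 in the value table (adjusted p = 0.0174 and 0.000204, limma). Smoc2, a secreted matrix protein, fell by 2.27 ± 0.158 (SE, log2; adjusted p = 1.25e-05, limma). Nbl1, a DAN family antagonist like Grem1, fell by 1.28 ± 0.189 (SE; adjusted p = 0.000593, limma), but its difference was 0.01 with spike-in scaling. The remaining calls, named after their values were seen, were Fstl1 and Twsg1, which rose by 1.22 and 0.90, and Dand5, which fell by 0.80. Smoc1 did not pass, at -1.67 ± 0.744 (SE; adjusted p = 0.0918, limma), but did with slide as a block, at -1.46 (adjusted p = 0.000458, limma).

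Most other BMP ligands were not detected. Of 13 listed, 10 were well above background on no array and Gdf5 alone was tested, at -1.38 ± 0.668 (SE; adjusted p = 0.115, limma). With slide as a block Gdf5 was at -1.19 and passed (adjusted p = 0.000116, limma). Pcolce, which enhances the cutting of procollagen by Bmp1, fell by 1.07 ± 0.127 (SE; adjusted p = 0.000183, limma), though the difference was 0.22 with spike-in scaling.

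Among receptors, Acvr2b, a type II receptor of activins and BMPs, fell by 3.67 ± 0.521 (SE; adjusted p = 0.000472, limma). Its differences of -4.45 on slide 1 and -2.49 on slide 2 were unequal (interaction, adjusted p = 0.0145, limma), as were those of Smurf1, which were -0.85 and 0.31 (adjusted p = 0.0145, limma). These were 2 of the 24 genes, a share no higher than the 9.41% of all genes tested that were called unequal. Rgma, a BMP co-receptor, fell by 1.79 ± 0.537 (SE; adjusted p = 0.0211, limma), a call that was lost without control replicate 3 or without control replicate 4 (adjusted p = 0.0561 and 0.0611, limma). The call of Rgma was also lost with spike-in scaling, at -0.5 (adjusted p = 0.49, limma). With slide as a block it was kept, at -1.64 (adjusted p = 4.14e-05, limma). Acvr1, another BMP receptor kinase, was at 0.17 ± 0.162 (SE) and did not pass.

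Of the SMADs and their regulators, 7 of 9 were tested. Smad5, which carries the BMP signal, fell by 1.09 ± 0.126 (SE; adjusted p = 0.000153, limma), with 0.20 under spike-in scaling. With the percentile over all probes the calls of Nbl1, Pcolce and Smad5 were lost (adjusted p = 0.159, 0.231 and 0.228, limma). Smurf2, a ubiquitin ligase that acts on SMADs and receptors, rose by 1.02 ± 0.171 (SE; adjusted p = 0.00118, limma), a call lost with normexp (0.17, adjusted p = 0.535), normexp then quantile (0.65, adjusted p = 0.0574) and the value table (0.58, adjusted p = 0.0514). Smad9, another SMAD of the BMP branch, passed as higher (adjusted p = 0.0456, limma) but was well above background on no control array, its groups overlapped, and no bound above 1 could be given. Its call was lost without any 1 of the 5 PBS-treated arrays (adjusted p = 0.053 to 0.0895, limma) and without control replicate 1 or 2 (adjusted p = 0.104 and 0.101, limma), and with normexp it was lower, at -0.70. Smad1, Smad4, Smad6 and Smurf1 did not pass, with differences of -0.33, 0.47, 0.88 and -0.36, though Smad6 did with slide as a block, at 0.77 (adjusted p = 0.00619, limma).

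Of the other BMP targets, Id2, a relative of Id1, rose by 1.73 ± 0.346 (SE; adjusted p = 0.00302, limma), with 2 of 4 control arrays well above background. With normexp it was 0.35 and did not pass (adjusted p = 0.401, limma). Id3, a further relative, was at 0.83 ± 0.332 (SE; adjusted p = 0.0647, limma), and at 0.90 with slide as a block, where it passed (adjusted p = 0.0085, limma). Msx1, Atoh8 and Runx2, transcription factors, did not pass, at 1.94 ± 1.33, -0.06 ± 0.187 and -1.71 ± 1.05 (SE). Runx2 passed with slide as a block, at -1.41 (adjusted p = 0.0037, limma). Atoh8 passed with spike-in scaling, at 1.23 (adjusted p = 0.000749, limma), where the median of all genes was 1.27, and as lower with normexp and slide as a block, at -0.63 (adjusted p = 0.00365, limma).

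**Figure D5:**
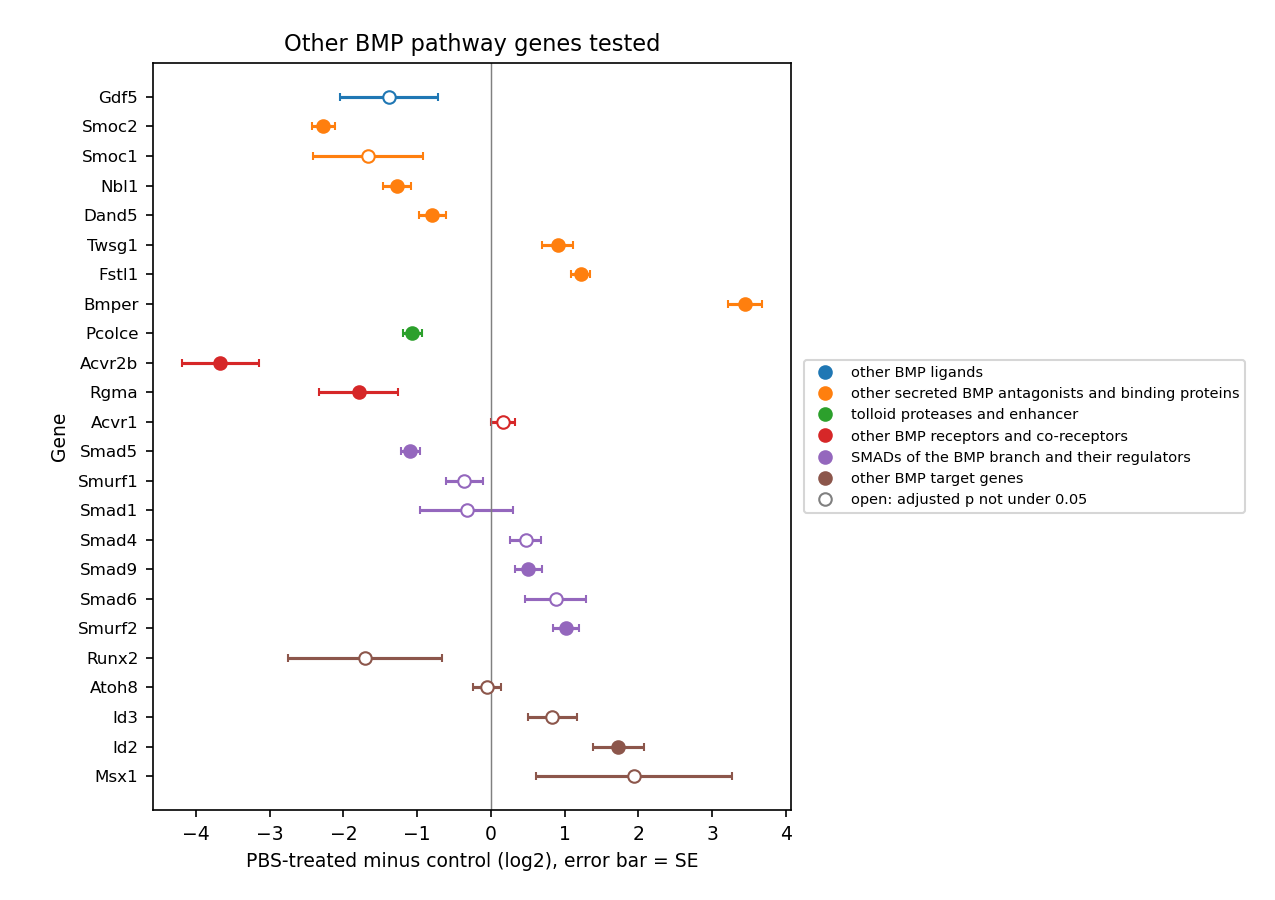
PBS-treated minus control difference (log2) with its SE for the 24 tested genes of the pathway that are no members, coloured by list, filled where the adjusted p was under 0.05 (limma). Bmper at 3.44 and Acvr2b at -3.67 are the extremes, and the secreted antagonists lie on both sides of 0.

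The genes whose levels over the 9 arrays ran most like those of each member were ranked by Pearson correlation, as a description. Only genes with an ordinary symbol and a value on all 9 arrays were ranked. Those named by a clone, locus or prediction were left out. The counts above 0.95 cover all genes tested. The arrays share 2 groups and 2 slides, so high values are common. For Nog the first 5 were Btnl5-ps (0.996), Lce1a2, a cornified envelope gene (0.987), Hipk4, a kinase (0.980), Spaca6, a sperm protein (0.979) and Cdk5r1, an activator of Cdk5 (0.978), and 74 genes were above 0.95. The 5 were picked for this likeness, so it is no separate result that each was lower in PBS-treated EVs, and by more on slide 2. The differences on slides 1 and 2 were -2.68 and -7.47 for Btnl5-ps and -2.45 and -6.46 for Lce1a2. Chrd ran most like Wnt1, Uncx and Plac9a (0.998 each), with 1319 genes above 0.95. Grem1 ran most like Pgk1 (0.999), Ly6c1 and Hnrnpd (0.998 each), with 1470 above 0.95. Bmp1 ran most like Zbtb22, Tnfrsf14 and Ltbp3 (0.990 each), with 167 above 0.95. Bmp4, whose levels hardly varied, ran most like Foxa2 (0.908), Arl6ip1 (0.872) and Spire1 (0.871), with no gene above 0.95.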

How the data were processed

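Total RNA of MEF-derived EVs was purified, amplified and labelled with cyanine 3, per the labels, and each of 9 samples was hybridised to 1 Agilent mouse array with 62976 spots. Scans were quantified by the authors in Feature Extraction 10.7.3.1 (Agilent), and the deposited files give background-corrected, mean and background intensity on a linear scale. A deposited table holds log2 values that ran between the same limits on each array (median 5.97) and ranked probes as the mean signal did. How it was scaled and centred is not given in the sources, and it was used only as an alternative.

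Control spots and non-uniform spots (3 to 29 per array) were left out, and no spot was saturated. Log2 of the processed signal minus the array's 75th percentile was used. A probe had to be well above background on 4 or more arrays (17767 probes passed), and each gene took its brightest probe. Gene names are those of the array design, and 3093 of the 26413 probes with a RefSeq match took the current symbol. Groups were compared by lmFit and eBayes of limma 3.58.1 (two-sided, Benjamini-Hochberg adjusted p under 0.05) in R 4.3.3, and the interaction of group and slide in a second fit. Both were tested on simulated data with independent noise for each array, which cannot show the effect of dependence between arrays. Where no array of a group was well above background, the fold is a bound. In it each dim array counts at its own signal or at its lowest signal well above background, whichever is higher. The bound is not strict, since a probe can fail to be well above background at a signal above that lowest one. Where all dim arrays count at their own signal, the fold is the plain difference and no bound. Precision is limited by the number of arrays.

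The 9 members, the 6 lists of pathway genes and the tests were chosen with earlier results of these data known. Named were all members and up to 3 called genes of largest difference from each list. Where fewer than 2 were called, those not called with the smallest difference were added. Also named were the genes with an ordinary symbol most correlated with Nog (5) and with members detected on all arrays (3 each). Further genes of the lists are named where a count of 5 or fewer was given or a list was accounted for. Alternatives were other scalings, normexp (offset 50), the value table, other filters and probe choices, array weights, the replicate number or the slide as a block, the methods' t-test and the removal of arrays. Spike-in scaling used 8 probes of added RNA. Normexp with slide as a block was added after seeing the data. Replicate numbers were not taken as a pairing, since number 3 lies on different slides. Whether they pair the samples cannot be told, because deviations from the group means also hold the step between slides. Figures were drawn with matplotlib 3.10.9, pandas 2.3.3 and numpy 2.4.6 under Python 3.11.15.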

Additional observations from a re-analysis of the deposited data

Results flagged for a closer look

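In 44 sets of 4 or 5 arrays of 1 group, taken over the members and the other named pathway genes, 3 had an array far from the rest, where chance gives about 1 in 20. The gap of Bmp4 in control replicate 3 to its nearest neighbour was 0.893 of the range of the control arrays, with a level of -1.05 against -0.83 for the nearest. For Nbl1, PBS-treated replicate 3 stood at 0.91 against 0.18 (0.935 of the range). For Id2, PBS-treated replicate 3 stood at -4.09 against -2.85 (0.851 of the range).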

How the results depend on the processing

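The number of genes called for the group difference, 7478, was 4883 with the percentile over all probes and 4508 when only probes well above background on all 9 arrays were tested, where 7216 genes remained. The share of calls that were higher, 60.4%, was 72.3% with the percentile over all probes, 92.7% with spike-in scaling, 28.7% with normexp, 23.3% with normexp and slide as a block, 40.6% without a filter and 49.7% on slide 1 alone. The 13 calls among the other pathway genes became 20 with array weights, and their split of 6 higher and 7 lower became 13 and 2 with spike-in scaling and 2 and 11 with normexp. Genes called unequal between slides, 1347, were 338 with normexp and 519 to 1955 when 1 array was left out, with 657, 660, 695 and 519 without PBS-treated replicates 1, 2, 4 and 5 and 589 and 592 without control replicates 1 and 2. Leaving out 1 array gave 6662 to 7365 genes called and 12 or 13 pathway genes. Signs turned for Nbl1 (0.01), Pcolce (0.22) and Smad5 (0.20) with spike-in scaling, for Smad9 with normexp (-0.70) and with normexp and slide as a block (-0.64), and for Fst in these fits (-0.22 and -0.17). The cause of these changes was not tested. Deviations from the group means correlated between equal replicate numbers at 0.70, 0.73, -0.54 and 0.74 for numbers 1 to 4, and control replicates 1, 2 and 4 were the best match of the PBS-treated replicate of their number. Equal numbers lie on the same slide for 1, 2 and 4 and on different slides for 3, so the numbers were not taken as a pairing. With a replicate block 7440 genes and 15 pathway genes were called, and with slide as a block 9979 and 18. The methods' t-test called 8043 genes unadjusted and 7210 after Benjamini-Hochberg adjustment. Signal over background limits Bmp2 and the Bmp4 probe A_55_P1959022 on all arrays, Fst in control EVs, and Nog in PBS-treated, Bmpr1a in control and the Bmp1 probe A_55_P2006708 in both groups of slide 2.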
